A study of Mus musculus with 12 samples.

Results

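The cytosolic ribosomal protein genes encode the protein parts of the large (60S) and small (40S) ribosomal subunits. They were taken as the protein-coding rows of the expression table whose symbol begins with Rpl or Rps followed by a digit, together with Rpsa, Rplp0, Rplp1 and Rplp2, with the Rps6k kinases left out. This gave 88 of 20202 genes, among 13730 protein-coding genes. Of them, 53 belong to the 60S subunit by name and 34 to the 40S subunit. The remaining gene, Rps19bp1, fits the symbol pattern but encodes a protein that binds Rps19 and is no part of the ribosome.

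Each ribosome carries a single copy of most of these proteins, and the cell has to make them in matched amounts. Their mRNAs belong to the TOP class, which starts with a cytosine followed by a run of pyrimidines and whose translation is controlled by mTOR through Larp1. Transcription of the genes is raised by Myc in many cell types, and reduced dosage of several of them causes Diamond-Blackfan anemia, a failure of red cell production. In the mouse genome almost every such gene has left processed pseudogenes, which are intron-less copies of its mRNA, so that short reads often match more than 1 place.

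The libraries came from ML23, a single murine leukemia line made by lentiviral overexpression of Meis1, HoxA9 and HoxB5 in cells of mice with an rtTA transgene. ML23 was passaged in C57BL/6 mice and carries a ZsGreen reporter. ZsGreen+ cells from 3 diseased mice were sorted by CD9, cKit, Mac1 and CD48. P11 was positive for cKit and CD48 and negative for CD9 and Mac1. P12 was positive for CD48 alone. P10 was positive for all but CD9, and P9 for all but CD48. P11 is the sub-population that the study names as leukemic stem cells, and all 4 carry the same transgenes and reporter. Each sub-population had 3 libraries of 100 cells each, and the labels do not say which libraries shared a mouse, so that the p-values measure the spread between these libraries only.

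The values are CPM, alignments scaled to a fixed library total. The totals were estimated from the spacing of low values, at 13463171 to 21317498 alignments. The highest estimates exceed the range of reads per sample that the study gives. At the smallest estimated total 1 CPM stands for 13.5 alignments. The labels name the source as hematopoietic stem cells. Of 11 stem and progenitor cell markers 7 were in the table, and Procr and Tek were below 1 CPM in every library. These 7 summed to 551 to 884 CPM in P11, 455 to 921 CPM in P12, 171 to 316 CPM in P10 and 14.2 to 22.6 CPM in P9. The summed level of a list of 12 neutrophil maturation genes was 278 to 810 CPM in P11, 413 to 484 CPM in P12, 1772 to 12377 CPM in P10 and 116546 to 130198 CPM in P9. The highest P10 value was that of replicate 3, and P12 replicate 3, sorted as Mac1-, had 538 CPM of Itgam, the alpha chain of Mac1, against 139 and 130 CPM in the other P12 libraries. Kit, the gene of cKit, was at 63.2 ± 23.2 CPM in P11, 5.19 ± 0.66 CPM in P12, 12.7 ± 7.6 CPM in P10 and 54.5 ± 10.9 CPM in P9, so that P10, sorted as cKit+, lay nearer to P12. Summed monocyte and macrophage markers lay at 3947 to 4179, 4499 to 7244, 6880 to 7510 and 1028 to 1068 CPM in the same order, and T and NK cell markers at no more than 2.09 CPM. The 10 most abundant genes took 13.5 to 14.8% of CPM in P9 and 4.41 to 6.15% in the other libraries.

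P9 stood far below the other sub-populations in ribosomal protein mRNA, and P11 was the highest. The 88 genes summed to 22151, 22110 and 25350 CPM in P11, to 17768, 20376 and 16774 CPM in P12, to 15390, 18121 and 16849 CPM in P10, and to 3002.5, 3297 and 4255 CPM in P9. No P11 library overlapped with any other sub-population, no P9 library did either, and the P12 and P10 libraries overlapped. The means were 2.32% ± 0.19, 1.83% ± 0.19, 1.68% ± 0.14 and 0.352% ± 0.065 of CPM for P11, P12, P10 and then P9 (SD, n = 3 each). The ratio of the mean sums was 6.59 for P11 over P9, 5.20 for P12 over P9, 4.77 for P10 over P9, 1.38 for P11 over P10, 1.27 for P11 over P12 and 1.09 for P12 over P10. In bulk libraries fewer cells of a type and less RNA per cell cannot be told apart.

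The 2 subunits moved in step. Genes of the 60S subunit summed to 13469 ± 1007 CPM in P11, 10528 ± 1088 CPM in P12, 9720 ± 794 CPM in P10 and 2012 ± 375 CPM in P9. Genes of the 40S subunit summed to 9729 ± 854, 7775 ± 776, 7063 ± 580 and 1504 ± 280 CPM in the same order. The 60S sum over the 40S sum was 1.39 ± 0.02 for P11, 1.35 ± 0.02 for P12, 1.38 ± 0.02 for P10 and 1.34 ± 0.03 for P9 (SD, n = 3 each), so that it spanned far less than the sums themselves.

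**Figure D1:**
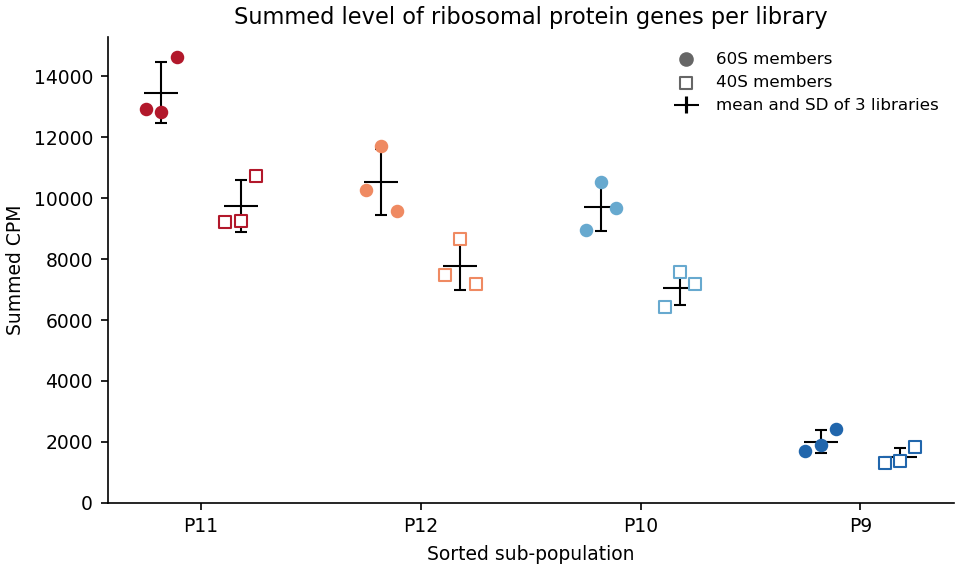
Summed CPM of the 60S members (filled circles) and 40S members (open squares) in each library, by sub-population, with the mean and SD of 3 libraries. The P11 libraries lie highest for both subunits, the P9 libraries lie between 1299 and 2429 CPM, and P12 and P10 overlap.

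Over single genes the same order held. P9 had the lowest mean in 86 of the 88 genes. P11 had the highest mean in 77, P12 in 9 and P10 in 2. These counts and the orders were not taken over all genes, which leaned the same way. Of 13450 genes tested, 9942 had a positive fold for P11 over P9, 8636 for P11 over P10 and 8465 for P11 over P12. Of the 87 members tested these were 87, 86 and 77. The order P11, P12, P10, P9 was the most frequent (46 genes), followed by P11, P10, P12, P9 (30 genes). Neighbours in that order were often close: P12 was higher than P10 past an adjusted p of 0.1 in 7 of 87 tested genes (21.8% of all genes), and P11 was higher than P12 in none (0.0223% of all genes). Per kilobase of coding sequence the median gene stood at 386, 313, 275 and 65.4 CPM in P11, P12, P10 and P9. On this scale Rpl41, which encodes the smallest ribosomal protein, was the highest in P11 (4210 CPM per kilobase), ahead of Rpsa (1651) and Rps24 (1509). The rank of Rpl41 rests on a divisor of 75 coding bases, which leaves out the untranslated parts of the mRNA. Before scaling it had 316 CPM in P11.

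**Figure D2:**
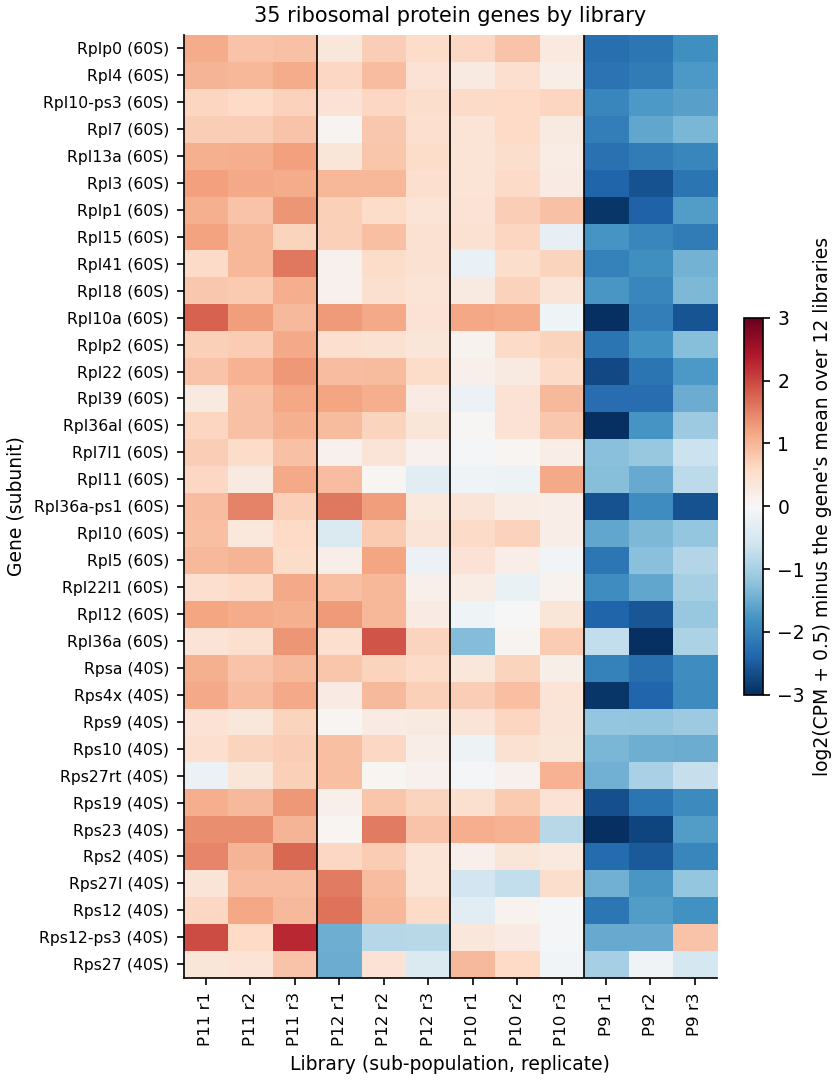
Heat map of 35 ribosomal protein genes named in the text in 12 libraries, ordered P11, P12, P10 and P9, within each subunit from the highest to the lowest mean CPM. Colour gives log2(CPM + 0.5) minus the mean of the gene over the libraries, with the scale ending at -3 and 3. The 3 P9 columns are blue in nearly every row, while Rps27 and Rps12-ps3 at the foot vary between replicates.

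Against P9, every tested ribosomal protein gene rose in P11. Each of the 87 met both thresholds, an adjusted p under 0.1 and a difference over 2-fold (limma, Benjamini-Hochberg over 13450 genes), a call that 46.8% of all genes met. Their median log2 fold change was 2.70, with quartiles of 2.26 and 2.97. The median over all genes tested was 0.90, and after rescaling the libraries by their median ratio these medians were 2.20 for the members and 0.45 for all genes. With that rescaling 83 of the 87 were called, where 4541 of 13441 genes were called higher. Libraries of P11 and P9 did not overlap in 86 of the 87, where 61.5% of all genes were higher without overlap. All 12 neutrophil maturation genes were called lower in P11 than in P9, and their part in the result was not tested.

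The largest fold was in Rpl10a (chr17:28328471-28331034 in mm10), a 60S protein next to the exit of tRNA. It had 285, 199 and 164 CPM in P11, against 3.68, 19.3 and 13.5 CPM in P9, a log2 fold change of 4.33 ± 0.50 (SE, adjusted p = 3.7e-06). Rps23 (chr13:90922958-90924951), a 40S protein of the decoding centre, had 147, 148 and 114 CPM in P11, against 5.76, 7.77 and 17.1 CPM in P9 (3.81 ± 0.51, adjusted p = 1.5e-05). Both groups were far apart in these genes, although the P9 libraries differed several-fold among themselves.

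Rps2 (chr17:24718116-24721930), a 40S protein at the mRNA entry, had 156, 115 and 187 CPM in P11, against 10.96, 9.44 and 14.1 CPM in P9 (3.66 ± 0.19, adjusted p = 3.8e-09). Rpl3 (chr15:80077791-80091869), a 60S protein near the peptidyl transferase centre, had 355, 335 and 327 CPM in P11, against 28.4, 24.2 and 33.0 CPM in P9 (3.56 ± 0.15, adjusted p = 1.4e-09). P9 replicates of both genes lay close together. The 3 highest genes, Rpsa, Rplp0 and Rpl4, rose by 3.01 ± 0.15, 3.04 ± 0.17 and 3.05 ± 0.16 on the log2 scale.

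At the other end stood Rps27 (1.09 ± 0.46, adjusted p = 0.043), Rps19bp1 (1.24 ± 0.24, adjusted p = 0.00033), Rps27rt (1.34 ± 0.32, adjusted p = 0.0018), Rpl27 (1.49 ± 0.57, adjusted p = 0.030) and Rps9 (1.62 ± 0.13, adjusted p = 1.1e-07). Rps27 was at 1.31, 1.39 and 2.06 CPM in P11, against 0.204, 0.814 and 0.484 CPM in P9, and at such levels few alignments decide the fold. Its call was lost with a pseudocount of 2 (0.52) and after median-ratio rescaling (0.80), and without P9 replicate 1 (0.86), P11 replicate 3 (0.93) or every replicate 3 (0.95). Rps27rt too fell below 2-fold after rescaling (0.83). Rpl27, a 60S protein, had 53.6, 122 and 104 CPM in P11, against 36.02, 26.5 and 31.6 CPM in P9, and summed with its near-identical copies in the table it gave 2.11 ± 0.23. Rps9, a 40S protein of the mRNA entry region, was well measured. It had 506, 477 and 602 CPM in P11, against 168, 166 and 178 CPM in P9.

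P12 and P10 were likewise above P9. In P12 83 of 87 genes were called higher (43.2% of all genes) with a median of 2.32 (all genes 0.80), and in P10 84 of 87 (34.1% of all genes) with a median of 2.19 (all genes 0.61). None was called lower in either, where 11.1% of all genes were lower in P12 and 8.33% in P10. On the adjusted p alone 84 passed in P12 (60.9% of all genes) and 85 in P10 (55.8% of all genes). Rpl10a led both, with 203, 183 and 112 CPM in P12 and 188, 181 and 76.2 CPM in P10, log2 fold changes of 3.95 ± 0.50 and 3.72 ± 0.50 over P9 (adjusted p = 1e-05 and 2.6e-05).

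Other genes were among the largest in 1 of these comparisons. Rpl36a-ps1, a pseudogene by name that the table lists as protein-coding, had 69.8, 55.1 and 28.6 CPM in P12, against 3.33, 5.93 and 3.32 CPM in P9 (3.41 ± 0.31, adjusted p = 5.4e-07). Rps4x, the X-linked gene of a 40S protein, had 642, 715 and 506 CPM in P10, against 49.96, 73.6 and 104 CPM in P9 (3.08 ± 0.24, adjusted p = 2.6e-07). Rplp1, an acidic stalk protein that helps to recruit elongation factors, had 207, 257 and 284 CPM in P10, against 19.9, 28.2 and 47.9 CPM in P9 (3.02 ± 0.25, adjusted p = 3.8e-07). The comparisons of P11, P12 and P10 share the P9 libraries and are not independent of each other. Without P12 replicate 3 the count for P12 was 82, and without P10 replicate 3 that for P10 was 82.

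**Figure D3:**
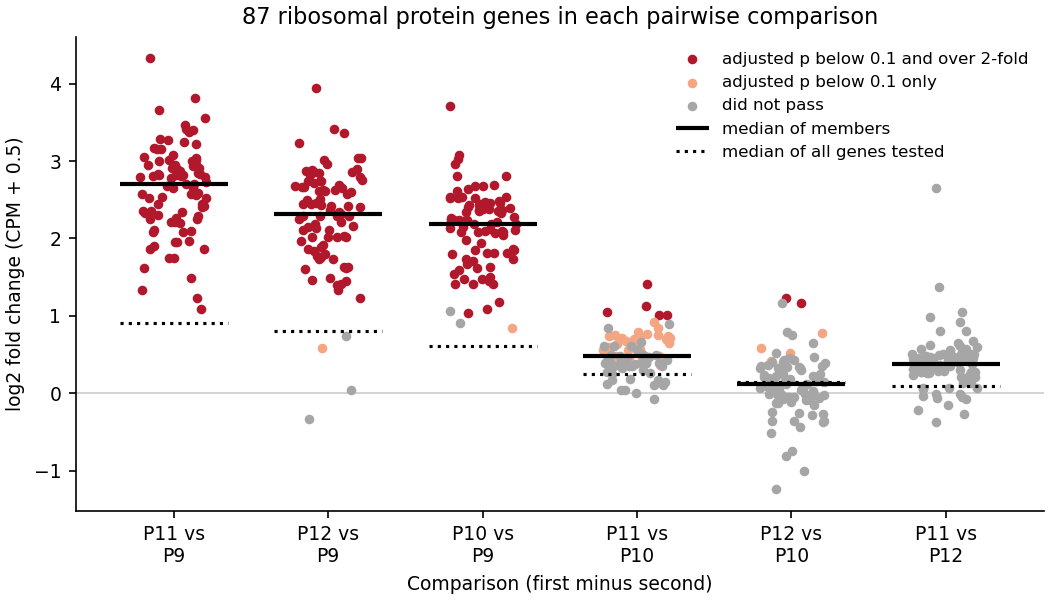
Log2 fold change of the 87 tested genes in each pairwise comparison, coloured by the call, with the median of the members (solid line) and of all genes tested (dotted line). The comparisons with P9 lie near medians of 2.70, 2.32 and 2.19, whereas those between P11, P10 and P12 lie between 0.12 and 0.48.

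The study looked for genes that set P11 apart from P12, P10 and P9 together, so P11 was also tested against the mean of their log2 values. The study describes an average of expression instead, and P9 pulls a mean of log2 values lower than a mean of CPM. Here 65 of 87 genes were called higher (19.9% of all genes) and 83 passed the adjusted p alone (50.1% of all genes), with a median of 1.17 (all genes 0.40). All P11 libraries lay above all 9 others in 23 genes, against 12.8% of all genes, and below them in 0, against 1.63% of all genes. The mean of the others includes P9, so that the distance from P9 enters every one of these values. After median-ratio rescaling 37 were called.

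The genes with the largest difference and no overlap were Rps2 (1.87 ± 0.15, adjusted p = 2.3e-06), Rpl3 (1.55 ± 0.13, adjusted p = 2.3e-06), Rpl13a (1.505 ± 0.114, adjusted p = 1.7e-06) and Rps19 (1.502 ± 0.166, adjusted p = 1.4e-05). Rpl13a, a 60S protein also known for silencing inflammatory transcripts, had 513, 516 and 570 CPM in P11, against 311, 434 and 356 CPM in P12, 324, 353 and 282 CPM in P10, and 51.0, 56.9 and 62.3 CPM in P9. Rps19, the gene most often mutated in Diamond-Blackfan anemia, had 164, 150 and 189 CPM in P11, against 85.3, 137 and 121 CPM in P12, 106, 131 and 103 CPM in P10, and 11.9, 16.3 and 20.001 CPM in P9. In both genes P12 and P10 overlapped while P11 and P9 stood apart on either side. For Rps2 the absence of overlap held for its own row only. Summed with its copies it had 191, 181 and 254 CPM in P11, against 271, 123 and 99.5 CPM in P12, 81.6, 88.2 and 142 CPM in P10, and 20.9, 20.5 and 23.7 CPM in P9 (1.57 ± 0.25, adjusted p = 0.00016), so that P12 replicate 1 lay above every P11 library.

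Between P11 and P10 the differences were small. The median was 0.48 (all genes 0.25), 86 of 87 genes had a positive fold (8636 of all 13450 genes), and 39 passed the adjusted p (34.4% of all genes). Only 5 were also more than 2-fold higher, a smaller share than the 12.8% of all genes, and none was called lower (7.52% of all genes). Libraries did not overlap in 46 of the 87, where 40.8% of all genes were higher without overlap. These 5 were Rps2, Rpl12, Rps12, Rps12-ps3 and Rps27l.

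Rps2 had 156, 115 and 187 CPM in P11, against 62.5, 72.8 and 68.9 CPM in P10 (1.13 ± 0.19, adjusted p = 0.00049). Rpl12, a 60S protein at the base of the stalk, had 17.8, 17.0 and 16.4 CPM in P11, against 6.87, 7.61 and 9.80 CPM in P10 (1.05 ± 0.36, adjusted p = 0.032). That row is a small part of its family, since Rpl12 summed with its copies had 481, 476 and 521 CPM in P11, against 239, 251 and 251.5 CPM in P10 (0.99 ± 0.20, adjusted p = 0.0014, just under 2-fold). Rps12, a 40S protein of the beak, had 18.3, 27.2 and 23.7 CPM in P11, against 9.41, 12.7 and 11.2 CPM in P10 (1.01 ± 0.27, adjusted p = 0.0085). In none of these 3 genes did a P10 library reach the P11 libraries. Rps12-ps3 had 5.06, 1.66 and 6.404 CPM in P11, against 1.32, 1.198 and 0.905 CPM in P10 (1.42 ± 0.59, adjusted p = 0.069). Its coding sequence has 0 differences from that of Rps12. It also overlaps Pdzd8 (mean 151 CPM) on the opposite strand, which limits every value of this row. After rescaling by the median ratio no gene was past both thresholds, with Rps2 at 0.99 (adjusted p = 0.00074), and without P11 replicate 3 the count was 1. Without P10 replicate 1, P10 replicate 2 and P11 replicate 2 it was 2, 3 and 3, and without P10 replicate 3 it was 4.

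Differences between P12 and P10 were smaller still. P12 over P10 gave a median of 0.12 (all genes 0.14), with 54 genes above 0 and 33 below (8132 and 5313 of all genes). There 7 genes passed the adjusted p (21.8% of all genes), and 2 of them, Rps12 and Rps27l, were more than 2-fold higher (6.25% of all genes), with none called lower (5.83% of all genes). Rps12 had 37.9, 24.1 and 17.8 CPM in P12, against 9.41, 12.7 and 11.2 CPM in P10 (1.16 ± 0.27, adjusted p = 0.008). Its call was lost without P12 replicate 1 (0.88), and without that library no gene was called, whereas 4 were called higher without P12 replicate 3, and 3 higher and 1 lower without P10 replicate 3.

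P11 over P12 gave a median of 0.38 (all genes 0.10) and 77 genes above 0 (8465 of all 13450 genes). By limma none of 87 passed the adjusted p, where 0.0223% of all genes were called. At an unadjusted p under 0.05 there were 28, and in 32 the P11 libraries lay above the P12 libraries without overlap (17% of all genes), and in 0 below them (5.7% of all genes). Without P9 replicate 3, which shares in the estimate of the spread, 1 gene was called. With the replicate number as a block, 99 genes of the whole table were called higher and 20 lower, against 3 and 0 without it. On the adjusted p alone 5 members were higher with the block, against 0 without it. Of the members 1 was then called, Rps12-ps3 (2.66 ± 0.52, adjusted p = 0.054), whose adjusted p without the block was 0.13. Rps2 had 86.9, 95.7 and 74.9 CPM in P12 and also an adjusted p of 0.13 without the block (0.80 ± 0.19). Summed with its copies Rps2 gave 0.47 ± 0.31 for P11 over P12 (adjusted p = 0.53).

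Functional groups within the ribosome were read by their counts and medians. The stalk genes Rplp0, Rplp1 and Rplp2, whose proteins recruit translation factors to the large subunit, were all called higher in P11 than in P9 (median 3.04) and gave 0.36 to 0.43 over P10 with none passing. Rpl5 and Rpl11, which carry 5S rRNA into the 60S subunit and bind Mdm2 when ribosome assembly fails, both rose over P9, by 2.29 ± 0.36 and 1.87 ± 0.38 in their own rows. These rows hold little of their families. Summed with its copies Rpl5 had 741, 746 and 801 CPM in P11, against 68.4, 79.4 and 120.1 CPM in P9 (3.13 ± 0.20), and Rpl11 gave 2.41 ± 0.15. Of 19 genes mutated in Diamond-Blackfan anemia, all 19 were called higher in P11 than in P9 (46.8% of all genes) with a median of 2.58 (all genes 0.90). Over P10 7 of them passed the adjusted p, a share near the 34.4% of all genes, with a median of 0.42 (all genes 0.25).

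Several ribosomal proteins have a paralog that can take their place in the particle, and these pairs did not all keep 1 ratio. Rps27l is the paralog of Rps27 and a known target of p53. Rps27 itself took 0 to 1.95% of its sum with Rps27rt, a copy on another chromosome whose coding sequence of 252 bases has 0 differences from that of Rps27. The first 61 coding bases (1 read length, GENCODE models on GRCm38) are shown because they are the same in Rps27 and Rps27rt and not in Rps27l, where capitals mark the 18 bases that differ from Rps27:
Rps27: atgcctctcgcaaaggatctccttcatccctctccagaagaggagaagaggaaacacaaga
Rps27rt: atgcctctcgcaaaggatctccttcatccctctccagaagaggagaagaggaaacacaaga
Rps27l: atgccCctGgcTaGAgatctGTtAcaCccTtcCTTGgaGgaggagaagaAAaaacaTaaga

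Rps27 lies at chr3:90212522-90213652, Rps27rt at chr9:114982366-114982740 and Rps27l at chr9:66946086-66949517. Rps27l had 29.9, 43.3 and 43.4 CPM in P11, 67.6, 43.1 and 29.98 CPM in P12, 15.0, 13.3 and 32.6 CPM in P10, and 7.99, 6.39 and 9.88 CPM in P9. It was higher in P11 than in P10 by 1.01 ± 0.34 (adjusted p = 0.029) and in P12 than in P10 by 1.22 ± 0.34 (adjusted p = 0.019), with P10 replicate 3 inside the range of the others. Rps27rt had 105, 150 and 192 CPM in P11, 221, 122 and 129 CPM in P12, 115, 128 and 242 CPM in P10, and 42.7, 59.4 and 72.9 CPM in P9, and showed no difference between P11 and P10 past the test (-0.08 ± 0.32, adjusted p = 0.87).

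The share of Rps27l in the sum of Rps27l and Rps27rt was 22.2, 22.3 and 18.4% in P11, 23.4, 26.1 and 18.9% in P12, 11.6, 9.41 and 11.9% in P10, and 15.7, 9.71 and 11.9% in P9. All P11 and P12 libraries lay above all P10 and P9 libraries. The share was looked at after the values were seen and is given without a test. The call of Rps27l against P10 was lost without P10 replicate 1 (adjusted p = 0.11), P10 replicate 2 (adjusted p = 0.12), P11 replicate 2 (0.93, under 2-fold) or P11 replicate 3 (0.92), and under a pseudocount of 2 (0.95) or rescaling (0.88).

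Rpl22l1 and Rpl7l1 had the opposite pattern, with the paralog taking more of the pair in P9. Rpl22l1, the paralog of the RNA-binding protein Rpl22, took 13.5% ± 1.3, 15.4% ± 2.1, 13.8% ± 2.8 and 23.8% ± 1.2 of the pair in P11, P12, P10 and P9 (SD, n = 3 each). Rpl7l1, whose protein acts in ribosome assembly, took 13.7% ± 0.8, 12.2% ± 2.0, 11.5% ± 1.8 and 20.5% ± 2.5 of its sum with Rpl7. Both paralogs were themselves lower in P9, Rpl22l1 by less than Rpl22 (2.22 ± 0.28 and 3.28 ± 0.22 for P11 over P9) and Rpl7l1 by less than Rpl7 (1.74 ± 0.16 and 2.45 ± 0.20). The P9 libraries did not overlap with any other library in either share.

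**Figure D4:**
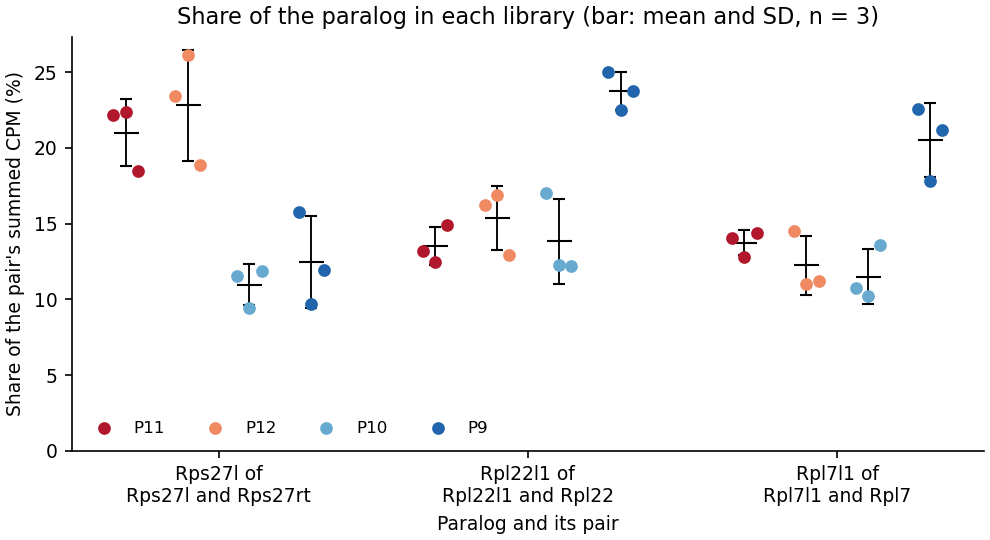
Share of Rps27l, Rpl22l1 and Rpl7l1 in the summed CPM of their pair in each library, with the mean and SD of 3 libraries. Rps27l took 18.4 to 26.1% in P11 and P12 and 9.41 to 15.7% in P10 and P9, whereas the shares of Rpl22l1 and Rpl7l1 were highest in P9.

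In single rows the shares of Rpl36al overlapped between sub-populations. Rpl36al took 89.1% ± 2.5, 84.5% ± 7.7, 91.8% ± 3.6 and 83.0% ± 18.6 of its sum with Rpl36a in P11, P12, P10 and P9, and the spread within P9 exceeded the distance between the groups. These shares are of single rows, and the Rpl36a row holds little of its family. With copies Rpl36a had 91.8, 128 and 144 CPM in P11, against 83.0, 110 and 128 CPM for Rpl36al. In P9 it had 8.20, 9.52 and 15.2 CPM, against 9.30, 16.3 and 28.0 CPM for Rpl36al. In P10 Rpl36a with copies had 50.3, 66.1 and 79.4 CPM, against 57.6, 77.7 and 99.3 CPM for Rpl36al. In P12 it had 82.0, 107 and 73.6 CPM, against 91.2, 94.7 and 77.5 CPM. With copies Rpl36al thus held less of the sum than in single rows in P11, P10 and P9. It lay below Rpl36a in every P11 library and above it in every P10 and P9 library, and P12 was mixed. Rpl39 stood alone in the table, at 107 ± 32.4, 113 ± 35.6, 85.4 ± 32.9 and 15.3 ± 5.43 CPM. Rpl3l, the muscle paralog of Rpl3, was at most 0.751 CPM in any library and was not tested.

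The copies set a limit on every single-gene value. Of the 61-base windows in the coding sequence of each gene, a median of 88.7% also occurred in another annotated gene, and in 73 of the 88 genes more than 50% did. The clearest case is Rpl10 (chrX:74270812-74273136), a 60S protein needed for the last step of subunit maturation. Its copy Rpl10-ps3 (chr9:50344201-50344969) is listed as protein-coding and has 0 differences over 642 coding bases, as their first 61 bases show:
Rpl10: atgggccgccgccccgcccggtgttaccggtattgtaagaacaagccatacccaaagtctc
Rpl10-ps3: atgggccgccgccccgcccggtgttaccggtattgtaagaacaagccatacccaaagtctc

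Rpl10 was listed at 32.0, 21.2 and 25.9 CPM in P11, against 5.42, 6.34 and 7.30 CPM in P9, and Rpl10-ps3 at 765, 736 and 789 CPM in P11, against 124, 148 and 156 CPM in P9. Rpl10 took 3.33% ± 0.62 of their sum in P11 and 4.26% ± 0.19 in P9. The sum was 790 ± 29.3, 720 ± 54.0, 764 ± 15.7 and 149 ± 17.6 CPM in P11, P12, P10 and P9, so that P11 and P10 differed by less than the SD of P11 while P9 stood apart.

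Over all genes, 282 near-identical copies (at least 95% identity over 80% of the copy) of 72 ribosomal protein genes were in the table. They summed to 8709 ± 1350 CPM in P11, 6185 ± 639 CPM in P12, 5681 ± 757 CPM in P10 and 1165 ± 280 CPM in P9, or 37.4, 33.9, 33.8 and 32.9 CPM for each 100 CPM of the genes. The copies had the same order of sub-populations as the genes.

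Adding the copies to each gene steadied the replicates of some of them. Rpl10a with its copy Rpl10a-ps1 had 495, 409 and 517 CPM in P11, against 275, 311 and 309 CPM in P12, 272, 325 and 265.2 CPM in P10, and 25.5, 30.3 and 39.0 CPM in P9. P10 replicate 3, low for Rpl10a alone, was then level with the other P10 libraries, and the fold of P11 over P9 was 3.90. Rps23 with its copies had a fold of 2.70 in that comparison. Rps12 with its copies gave 0.76 for P11 over P10 and 0.30 for P12 over P10 (adjusted p = 0.40), so that neither was past 2-fold with copies.

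Genes with few shared windows were higher against P9 too. The 6 tested genes with at most 20% of windows shared were all called higher in P11 than in P9 (46.8% of all genes), with a median of 2.75. The lowest of them was Rps19bp1 (1.24), which is no part of the ribosome, and the 33 with every window shared had a median of 2.57. Of the genes, 31 were overlapped by another gene of the table, 20 of these on the opposite strand, and whether the counting used strand is not settled.

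**Figure D5:**
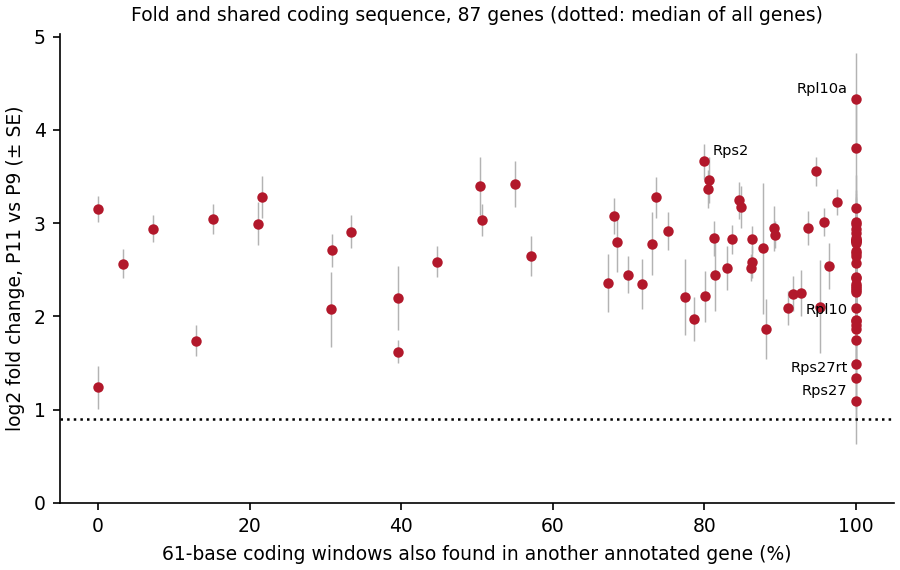
Log2 fold change of P11 over P9 (± SE) of the 87 tested genes against the percentage of 61-base coding windows that also occur in another annotated gene. All points lie above the dotted median of all genes (0.90), at 0% as at 100% shared windows.

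The start sites of the genes were looked at because the family moved together. RefSeq promoters (GRCm38.p6, 250 bases before to 50 after the start) matched 64 of the 88 genes. The letters CCGGAAG, an ETS-type site, were found on either strand in 25 of the 64 and in 9.93% of 27025 genes with a promoter. AAGATGGC, a YY1-type site, was in 6 of the 64 and in 3.19% of all. CTTTCC, a pyrimidine run of the kind that opens a TOP mRNA, lay on the coding strand within 15 bases of the start in 10 of the 64 and in 1.67% of all. Of the more abundant of these 10, 4 are shown from 15 bases before to 15 bases after the start, with CTTTCC in capitals:
Rpl13a: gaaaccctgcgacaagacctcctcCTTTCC
Rps10: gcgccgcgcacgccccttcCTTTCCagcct
Rpl15: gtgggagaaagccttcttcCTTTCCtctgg
Rpl18: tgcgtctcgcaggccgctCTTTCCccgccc

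They lie at chr7:45128731-45128760 (minus strand), chr17:27635230-27635259 (minus), chr14:18270972-18271001 (minus) and chr7:45718056-45718085 (plus). A match describes these letters and is no measure of binding or of use of the start.

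Other genes of the translation machinery were taken from lists. Rack1, a scaffold on the 40S subunit, and Fau, which encodes a ribosomal protein fused to a ubiquitin-like domain, were both called higher in P11 than in P9. Rack1 had 1018, 743 and 837 CPM in P11, against 85.9, 81.7 and 100.0 CPM in P9 (3.26 ± 0.16). Fau had 167, 183 and 226 CPM in P11, against 72.4, 94.9 and 105 CPM in P9 (1.08 ± 0.17), a fold as small as that of the lowest ribosomal protein genes.

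Of 20 translation factors with TOP mRNAs, 18 were called higher in P11 than in P9 (46.8% of all genes; median 2.36) and 4 higher than in P10 (12.8% of all genes). Eef2, the elongation factor that moves the ribosome along the mRNA, had 3071, 2535 and 2622 CPM in P11, against 397, 381 and 413 CPM in P9 (2.78 ± 0.15). Eef1g rose by 3.63 ± 0.19 over P9 and by 1.21 ± 0.19 over P10. Of 13 chaperones and importers of ribosomal proteins, 12 were called higher in P11 than in P9 (46.8% of all genes) with a median of 2.43, and 6 higher than in P10 (12.8% of all genes) with a median of 0.99, among them Ipo5 (1.29 ± 0.20) and Heatr3 (1.11 ± 0.26).

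Regulators were nearer to the background, where 46.8% of all genes were called higher and 11.2% lower in P11 than in P9. Of 16 genes that control TOP mRNAs, 8 were called higher and 1 lower (median 0.84, all genes 0.90), and Larp1, which binds the TOP motif, rose by 2.15 ± 0.13. Of 7 tested genes of the Myc network, 2 were called higher and 2 lower. Myc had 148, 152 and 179 CPM in P11, 122, 89.5 and 66.5 CPM in P12, 38.0, 40.6 and 52.7 CPM in P10, and 6.74, 6.22 and 8.59 CPM in P9. Mxd1, which competes with Myc for Max, had 31.4, 28.0 and 31.2 CPM in P11, 31.0, 35.1 and 33.1 CPM in P12, 46.5, 50.6 and 56.1 CPM in P10, and 1138, 1164 and 1061 CPM in P9. Myc was higher in P11 than in P10 by 1.87 ± 0.21 and Mxd1 was lower in P11 than in P9 by more than any other gene of that list (-5.19 ± 0.11). Of 9 tested genes of the p53 response to nucleolar stress, 5 were called higher and 1 lower in P11 than in P9 (median 1.05), shares near those of all genes.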

How the data were processed

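RNA-seq was analysed from 12 libraries of ML23 cells, 3 for each of P11, P12, P10 and P9. Per the labels, each library came from 100 sorted cells, amplified with 14 cDNA cycles and a SMART-Seq poly-A kit, while the series design and the study's methods give a directional kit. With STAR 2.5.3a the authors placed single-end 61-base reads on mm10 (Ensembl release 92), then quantified with the Partek E/M algorithm, which divides reads among the places they match. The submitters' processing notes also name bcl2fastq 2.17, Bowtie2 and DESeq, without their roles, and the authors used DESeq2 3.5 for their own comparisons, which were not used here. The deposited values are CPM with 0.0001 added. That offset was subtracted. From the spacing of low values, 76.5 to 82.5% came within 0.1 of whole alignments, so that no count test was run, and the table holds 75.1 to 83.7% of each total. The kit reads poly-A mRNA, and the values are relative to each library, so that they carry no measure of RNA per cell.

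Values were tested as log2(CPM + 0.5) for genes reaching 1 CPM in 3 or more libraries (13450 genes, 87 of the 88 members), so that folds of low genes are understated. The fit, in limma 3.58.1, gave each sub-population its own mean, used all 12 libraries and let the variance follow the level. The Benjamini-Hochberg adjustment ran over every tested gene. R 4.3.3 and the package data.table (1.17.8) were used. A gene was called past an adjusted p of 0.1 and a 2-fold difference, the thresholds of the study. The test was checked on simulated data. Coding sequences came from GENCODE M21 models (GRCm38), copies were found with BLAST 2.17.0+, and promoters came from RefSeq. Plots came from matplotlib 3.10.9 and tables from pandas 2.3.3 with numpy 2.4.6, under Python 3.11.15.

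Members and lists were chosen with earlier results of these data known. Members were named by a rule: in each comparison up to 4 with the largest fold among those called, at a mean of 10 CPM or more in the higher sub-population and without overlap; the 3 highest and 3 lowest by mean CPM; every paralog pair; members against the common direction, of which there were none; and up to 4 genes of each other list with the smallest adjusted p for P11 against P9. Rps12-ps3, Rps27l, Rps9, Rpl27 and the genes of the stalk and of 5S rRNA were also named after their values were seen. The replicate numbers were also tried as a block. Over all genes, the deviations of libraries of 1 number correlated above 0.1 in all 3 pairs between P11 and P10, and P11 and P9 narrowly missed this. The other alternatives were pseudocounts, filters, scalings, thresholds and left-out libraries. Summing each gene with its copies was added after the data were seen. Some genes of the lists are not reported here.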

Additional observations from a re-analysis of the deposited data

How the results depend on the processing

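Of the values of named genes under the alternatives, 1119 kept their side of the threshold, 38 fell below it and no called gene reversed. A change of sign in a gene that was not called was not counted. The median fold of P11 over P9 moved to 2.20 and that of P12 over P9 to 1.89 with median-ratio scaling, which moved the median of all genes from 0.90 to 0.45 and from 0.80 to 0.38, so that members minus all genes was 1.757 and 1.502. With that scaling P11 against the mean of the others called 37 members (65 as reported) and P11 against P10 called 0 (5 as reported), and over all genes P11 against P9 called 4541 higher and 2270 lower, against 6288 and 1504 as reported. Against P9 the same scaling called 83 members for P11 (87 as reported), 78 for P12 (83) and 80 for P10 (84). Over all genes it called 4200 higher for P12 against P9 (5808 as reported) and 3340 for P10 (4582). With a pseudocount of 2 P11 against P10 called 1, P11 against P12 1 (0 as reported) and P11 against P9 85. With no fold minimum P11 against P10 called 39 and P12 against P10 7 (2 as reported). Without replicate 3 of every sub-population these counts were 2 and 8 (7 higher and 1 lower), and with copies summed 2 and 1. Leaving out 1 library at a time gave 51 to 72 for P11 against the mean, 1 to 5 for P11 against P10, 0 to 1 for P11 against P12, 0 to 4 for P12 against P10, 86 to 87 for P11, 82 to 84 for P12 and 82 to 85 for P10 against P9.

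Libraries of 1 replicate number correlated between -0.016 and 0.53 in their deviations over all genes. Between P11 and P10 the 3 pairs gave 0.45, 0.17 and 0.53, and between P11 and P9 0.0998, 0.106 and 0.259. Only the lowest value, that of P10 and P12 replicate 1, was negative. With the replicate block P11 against P10 called the same 5 members. Over all genes it called 1753 higher and 1028 lower, against 1728 and 1012 as reported. The block called 1 member for P11 against P12 and 3 for P12 against P10 (2 higher and 1 lower), and the other counts of calls were those reported. On the adjusted p alone, 50 members were higher with the block for P11 over P10 (39 as reported). For P11 over P12 there were 5 (0 as reported), and for P12 over P10 10 (7 as reported). The cause of these changes was not tested. Depth limits the genes below a few CPM (Rps27, Rps12-ps3, Rpl3l), and 3 libraries of 100 cells per sub-population limit differences under 2-fold.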

Other observations

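Within each sub-population, short ribosomal protein genes differed between replicates. For the 11 tested genes with coding sequences of 300 bases or less, the median deviation from the mean of their sub-population on the log2 scale was -0.46, -0.04 and 0.41 in replicates 1, 2 and 3 of P11, -0.25, 0.13 and 0.07 in P12, -0.52, 0.02 and 0.56 in P10, and -0.41, 0.00 and 0.35 in P9. Replicate 1 was the lowest in each sub-population, and replicate 3 the highest in P11, P10 and P9. For the 24 genes of over 600 bases the deviations lay between -0.19 and 0.26. Over the 87 genes, which share their library and are not independent, the correlation of the deviation with log2 coding length was 0.51 in P11 replicate 1 and -0.43 in P11 replicate 3 (Spearman 0.61 and -0.55). The cause was not tested.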
